A study of Mus musculus with 6 samples.

Results

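GABA-A receptors are chloride channels built from several subunits that open when they bind the transmitter gamma-aminobutyric acid (GABA), and they carry most of the fast inhibition of the brain. The alpha subunit sets how a receptor responds to GABA and to many drugs, beta subunits take part in forming the GABA site, and the delta subunit takes the place of a gamma subunit in receptors outside the synapse. In hippocampus, alpha5 and delta receptors are best known for tonic inhibition, and alpha2 receptors for synapses on pyramidal cells.

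The genes described here encode 7 of these subunits: the alpha subunits Gabra2, Gabra3, Gabra4 and Gabra5, the beta subunits Gabrb1 and Gabrb2, and the delta subunit Gabrd. They were taken by gene name from a table of 24935 genes, and all 7 were found. The table holds hippocampal mRNA of C57BL/6 mice at postnatal day (P) 14, with 3 libraries of mice kept in room air (Air) and 3 of mice kept in 85% oxygen (Hyperoxia) from P2 to P14. Pups were exposed together with their dams, the RNA came from the left hippocampus, and the numbers 1 to 3 are those of the table's columns, which name a group and not an animal. Every direction below follows the group named in those columns. The paper on these data lists Gabra3 mRNA as lower with hyperoxia, opposite to the direction found here. Its sign for Gabra5 mRNA, not significant there, is also opposite. The reason for this conflict between the mRNA directions was not tested. For protein, measured in the right hippocampus, the paper reports both the alpha3 and the alpha5 subunit as higher with hyperoxia. Protein was not examined here. The comparison asks whether neonatal oxygen exposure was accompanied by a change in the level of each subunit mRNA and in the make-up of the alpha subunits.

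The values are normalized counts, that is, reads per gene divided by 1 size factor per library. Between 30384052 and 38746972 reads on genes stood behind each library. Hyperoxia library 2 stood apart from the other 2 of its group in the trend of its values on transcript length (Spearman rho across genes −0.12, against 0.29 and 0.38 in Hyperoxia libraries 1 and 3 and −0.32 to −0.14 in Air). A gene was called where its adjusted p was under 0.05 in limma, with adjustment over the 17778 genes tested, and log2 fold changes are Hyperoxia minus Air with their standard error (SE).

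The stretches before the starts of 3 called subunit genes are shown because these genes moved in different directions and their starts differ in sequence. The letters are those of RefSeq on GRCm38.p6, 250 bases on the strand of the gene that end just before its RefSeq start. Capitals mark each CG dinucleotide. Where RefSeq lists several starts, the outermost was taken, and none of the 3 windows holds an annotated exon base of its gene. In the GENCODE annotation Gabrb2 begins further upstream, at 42419757, so that its window lies inside the span of the gene. The Gabra2 window is chr5:71095850-71096099 on the minus strand, the Gabra3 window is chrX:72656920-72657169 on the minus strand, and the Gabrb2 window is chr11:42420190-42420439 on the plus strand.
Gabra2: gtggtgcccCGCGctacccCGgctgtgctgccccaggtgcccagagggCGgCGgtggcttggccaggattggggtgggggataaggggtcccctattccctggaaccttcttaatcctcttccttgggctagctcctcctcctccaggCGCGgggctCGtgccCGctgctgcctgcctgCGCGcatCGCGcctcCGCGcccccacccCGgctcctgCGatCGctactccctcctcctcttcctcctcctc
Gabra3: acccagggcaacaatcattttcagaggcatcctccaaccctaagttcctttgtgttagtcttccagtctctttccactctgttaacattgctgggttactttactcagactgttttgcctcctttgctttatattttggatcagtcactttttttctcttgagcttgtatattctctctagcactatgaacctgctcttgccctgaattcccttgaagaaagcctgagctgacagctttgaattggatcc
Gabrb2: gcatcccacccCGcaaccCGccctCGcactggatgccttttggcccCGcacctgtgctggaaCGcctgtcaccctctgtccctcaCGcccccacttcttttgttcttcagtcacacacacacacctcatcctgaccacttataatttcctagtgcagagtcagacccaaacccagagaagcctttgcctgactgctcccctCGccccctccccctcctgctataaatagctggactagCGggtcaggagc
The Gabra2 window held 18 CG dinucleotides and had a GC content of 70.0%. The Gabra3 window held 0, at a GC content of 42.4%, and the Gabrb2 window held 8, at 58.8%. Among the members not called, the outermost Gabrb1 window also held 18, that of Gabra4 held 12 and that of Gabra5 held 9. A link between CG content and direction was not tested. The median over 32851 windows of RefSeq promoters was 6. The letters TATAAA, searched on both strands, were in these Gabra3 and Gabrb2 windows and not in that of Gabra2, and 12.4% of all windows held them. In the Gabra3 window they were on the strand opposite to the gene only. In the Gabrb2 window they were on the strand of the gene, near the end of the window. The other Gabrb2 windows did not hold them. The E-box letters CACGTG (in 6.02% of all windows), the cAMP response element TGACGTCA (1.55%) and the EGR letters GCGTGGGC (1.37%) were in no window found for the members. Windows were found for 6 of the 7 members.

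Of the 7 subunit genes, Gabra3, Gabrb2 and Gabrd were called higher in Hyperoxia, Gabra2 was called lower, and Gabra4, Gabra5 and Gabrb1 did not pass the threshold. Gabra3 about doubled and Gabrb2 had the largest log2 fold change of the 7, but its Hyperoxia libraries were far apart. Among all genes tested, 14.9% were called higher and 15.6% lower (30.5% in either direction), so that a call by itself was common in this comparison. The median log2 fold change was 0.22 over the 7 genes and −0.01 over all genes tested. In bulk tissue, fewer cells of a type and less RNA per cell cannot be told apart.

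**Figure D1:**
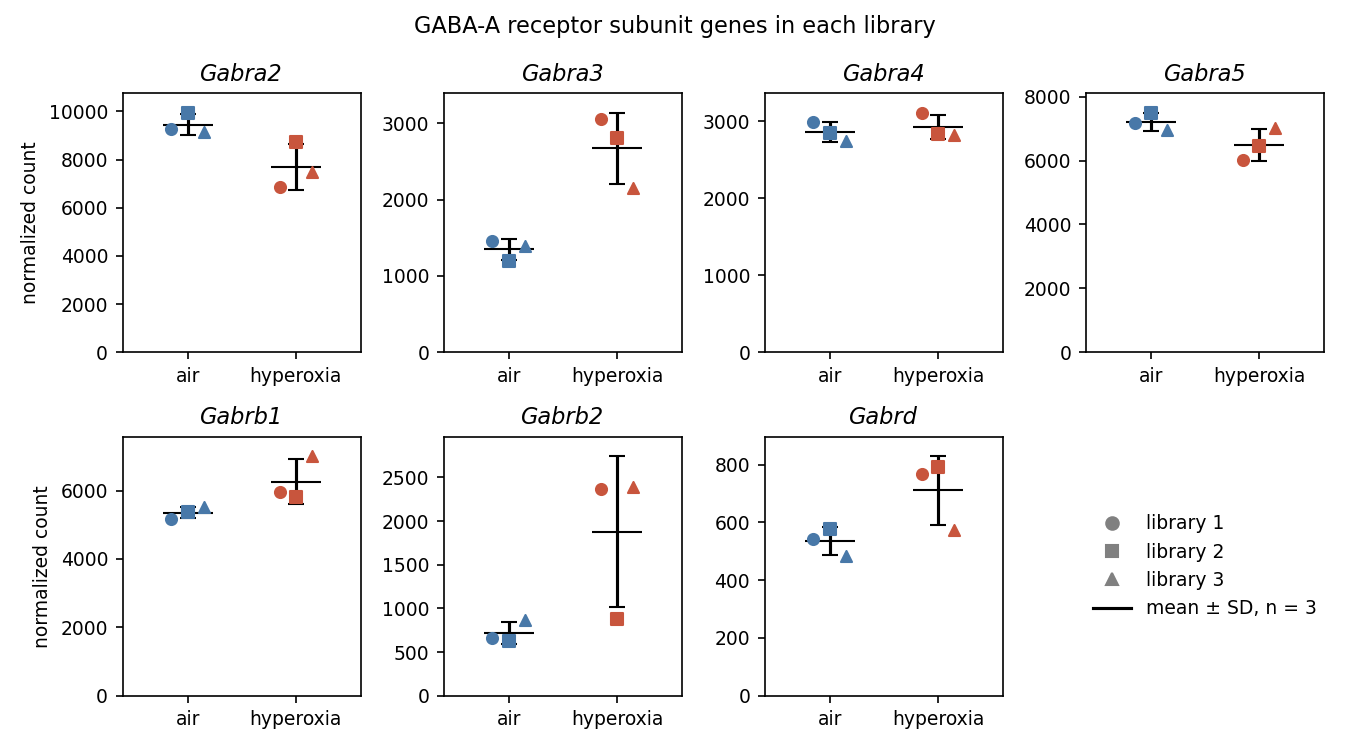
Normalized count (vertical axes, linear from 0) of each of the 7 subunit genes in the 3 Air and 3 Hyperoxia libraries, with a symbol per library number and the mean ± SD as a black line with bars. Gabra3 lies between 1189.6 and 1459.7 in Air and between 2153 and 3060.3 in Hyperoxia, while the Hyperoxia values of Gabrb2 split into 877 and 2365 to 2391.

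Gabra2 (ENSMUSG00000000560.9, chr5:70957597-71095849, minus strand) was the most read of the 7 genes. Its normalized count was 9249.9, 9945 and 9140.2 in Air libraries 1 to 3 and 6857, 8735 and 7501 in Hyperoxia libraries 1 to 3. All Hyperoxia libraries lay below all Air libraries, with Hyperoxia library 2 the nearest to Air. Mean values of 9445 ± 436 in Air and 7697 ± 954 in Hyperoxia (SD, n = 3) gave a log2 fold change of −0.30 (SE 0.09, limma adjusted p = 0.036). The direction was the same under all 18 alternative settings, between −0.58 and −0.22, and the call held under 11 of them. It was lost, for example, without any 1 library except Hyperoxia library 2 (limma adjusted p between 0.063 and 0.14).

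Gabra3 (ENSMUSG00000031343.13, chrX:72432681-72656848, minus strand) encodes a subunit that is abundant in the forebrain before birth and gives way to other alpha subunits in many regions as the brain matures. Its normalized count was 1459.7, 1189.6 and 1392 in the Air libraries and 3060.3, 2803 and 2153 in the Hyperoxia libraries. The groups were far apart, and Hyperoxia library 3 was the lowest of its group. The means were 1347 ± 141 (SD, n = 3) and 2672 ± 467 (SD, n = 3), which is 1.98 times the Air mean, with a log2 fold change of 0.98 (SE 0.13, 95% interval 0.68 to 1.27, limma adjusted p = 0.0011). It was called under all 18 alternatives, with values from 0.87 to 1.13.

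Because Gabra3 is on the X chromosome, its values were set beside Xist, the RNA of the inactive X chromosome. Xist was high in 1 library of each group, at 13962 in Air library 3 and 19417 in Hyperoxia library 1, and between 15.4 and 40.8 in the other 4. Among the libraries with high Xist, Gabra3 was 1392 in Air and 3060.3 in Hyperoxia, and among those with low Xist it was 1189.6 and 1459.7 in Air against 2153 and 2803 in Hyperoxia. The comparison at high Xist is of 1 library with 1 and has no replicate. With the Xist class as a covariate, a fit added after the data were seen, limma gave Gabra3 an adjusted p of 0.0017.

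Gabra4 (ENSMUSG00000029211.11, chr5:71569749-71658308, minus strand) encodes the usual partner of the delta subunit in the forebrain. The Air libraries had 2990.1, 2853 and 2740.1, and the Hyperoxia libraries had 3113, 2839 and 2827. The ranges overlapped, and 2 of the 3 Hyperoxia libraries lay inside that of Air. The log2 fold change was 0.03 (SE 0.07, limma adjusted p = 0.76), with a 95% interval from −0.13 to 0.19, and its sign turned under 2 alternatives.

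Gabra5 (ENSMUSG00000055078.7, chr7:57407672-57510059, minus strand), whose subunit is concentrated in hippocampal pyramidal cells, had 7163, 7499.7 and 6963 in Air. The Hyperoxia libraries had 6018, 6459 and 7023, so that library 3 lay inside the Air range and the other 2 below it. The log2 fold change of −0.15 (SE 0.08, 95% interval −0.32 to 0.02) did not pass the threshold (limma adjusted p = 0.16), nor did it under any alternative, where it lay between −0.21 and −0.10. Of its exon bases, 148 are shared with Gm9962 on the opposite strand, whose mean normalized count was 36.4.

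Gabrb1 (ENSMUSG00000029212.11, chr5:71658113-72149037, plus strand) had 5183, 5366 and 5514 in Air and 5974, 5815 and 7008 in Hyperoxia. All Hyperoxia libraries were above all Air libraries, and library 3 was the highest. The means were 5354 ± 166 (SD, n = 3) and 6266 ± 648 (SD, n = 3), and its difference of 0.22 on the log2 scale (SE 0.08, limma adjusted p = 0.071) missed the threshold. It passed the threshold under 3 of the 18 alternatives, among them DESeq2 (adjusted p = 0.041) and limma without Hyperoxia library 2 (0.27, adjusted p = 0.012). Its sign turned, to −0.19 (limma adjusted p = 0.12), after correction of every library for transcript length and GC content. Gabrb1 has 13838 exon bases, more than any other of the 7 genes, and shares 46 of them head to head with Gabra4 on the opposite strand.

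Gabrb2 (ENSMUSG00000007653.12, chr11:42419757-42629028, plus strand) encodes the beta subunit of the most common adult receptor. Its normalized count was 656, 629 and 863 in Air and 2365, 877 and 2391 in Hyperoxia. Hyperoxia libraries 1 and 3 were far above Air, whereas Hyperoxia library 2 was only just above Air library 3. The means were 716 ± 128 (SD, n = 3) and 1878 ± 866 (SD, n = 3), with a log2 fold change of 1.27 (SE 0.33, 95% interval 0.52 to 2.01, limma adjusted p = 0.018). Without Hyperoxia library 2 the log2 fold change was 1.74 (limma adjusted p = 1.3e-05), whereas the adjusted p rose above 0.05 without Air library 1, Air library 2 or Hyperoxia library 1 (limma adjusted p = 0.076, 0.072 and 0.073). After removal of the trend on length and GC content, the Hyperoxia libraries still differed among themselves, at 2261, 898 and 2222.

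Gabrd (ENSMUSG00000029054.8, chr4:155384980-155398112, minus strand) had the lowest counts of the 7 genes. Its normalized count was 542, 578 and 482.5 in Air and 766, 791 and 574 in Hyperoxia. Hyperoxia library 3 lay below Air library 2, so that the groups overlapped. The means were 534 ± 48.3 (SD, n = 3) and 710.4 ± 119 (SD, n = 3), and the log2 fold change was 0.40 (SE 0.13, limma adjusted p = 0.044). The call was lost under 8 of the 18 alternatives, among them those without any 1 library except Hyperoxia library 3 (limma adjusted p between 0.064 and 0.15), with no change of sign. Gabra2, Gabra3, Gabrb1 and Gabrb2 were thus the 4 of 7 genes whose groups did not overlap, against 46.1% of all genes tested.

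**Figure D2:**
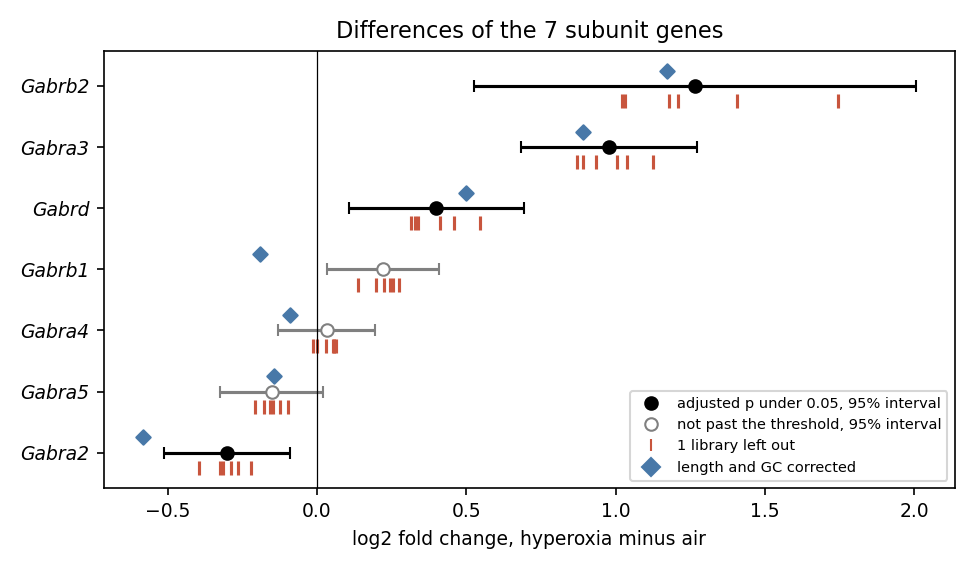
Log2 fold change, Hyperoxia minus Air, of each subunit gene (circles, filled where the adjusted p was under 0.05) with its 95% interval (lines), the values with 1 library left out (red ticks) and the value after length and GC correction (blue diamonds). Gabra3 and Gabrb2 are at 0.87 or above in every fit shown, and the corrected values of Gabrb1 and Gabra4 lie below 0.

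To compare levels between genes, normalized counts were divided by the exon length of each gene. Per kb of exon, Gabra5 was the highest in both groups, at 2424 ± 91.2 in Air and 2186 ± 169 in Hyperoxia (SD, n = 3), and Gabra2 came next at 1236 ± 57.1 and 1008 ± 125. In Air the order went on with Gabra4 (470.4 ± 20.6), Gabrb1 (387 ± 11.97), Gabra3 (343 ± 35.8), Gabrd (186 ± 16.8) and Gabrb2 (113 ± 20.2). No neighbours in that order had overlapping libraries, although Gabrb1 and Gabra3 were nearly level, at 374.6 for the lowest library of Gabrb1 and 372.0 for the highest of Gabra3. In Hyperoxia, Gabra3 (681 ± 119) came after Gabra2, above Gabra4 (481 ± 26.6), Gabrb1 (453 ± 46.8), Gabrb2 (295 ± 136) and Gabrd (247 ± 41.2). There, Gabra4 and Gabrb1 overlapped, and so did Gabrb2 and Gabrd.

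The make-up of the alpha subunits was taken as the share of each gene in the sum of Gabra2, Gabra3, Gabra4 and Gabra5 per kb of exon in the same library, which does not depend on the size factors. Gabra3 made up 8.30%, 6.60% and 8.17% of this sum in Air and 18.5%, 15.9% and 12.6% in Hyperoxia. Its share was 7.69% ± 0.95 in Air and 15.7% ± 2.96 in Hyperoxia (SD, n = 3), a difference of 7.98 percentage points, with no overlap of the groups. The share of Gabra2 was 27.0%, 28.3% and 27.5% in Air and 21.3%, 25.4% and 22.5% in Hyperoxia, again with no overlap and with a difference of −4.54 points between the means. Gabra5 was the largest share in every library, between 53.7% and 54.9% in Air and at 48.0%, 48.3% and 54.2% in Hyperoxia. Hyperoxia library 3 lay inside the Air range, while the other 2 were lower. The share of Gabra4 differed least, with 10.5% ± 0.40 in Air and 11.1% ± 0.95 in Hyperoxia (SD, n = 3).

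With 3 libraries against 3, an exact two-sided permutation test cannot go below 0.1, which it reached for Gabra3 and Gabra2 (exact p = 0.1 each, 0.2 after adjustment over the 4 shares). For Gabra5 and Gabra4 the exact permutation p was 0.3 and 0.5 (0.4 and 0.5 adjusted). Without the division by length, Gabra2 and not Gabra5 was the largest share in every library (45.3% ± 0.98 against 34.5% ± 0.31 in Air, SD, n = 3). The share of Gabra3 on that scale was 6.47% ± 0.81 in Air and 13.5% ± 2.51 in Hyperoxia (SD, n = 3). The order of Gabra2 and Gabra5 thus depended on the length, whereas the direction for each gene did not.

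**Figure D3:**
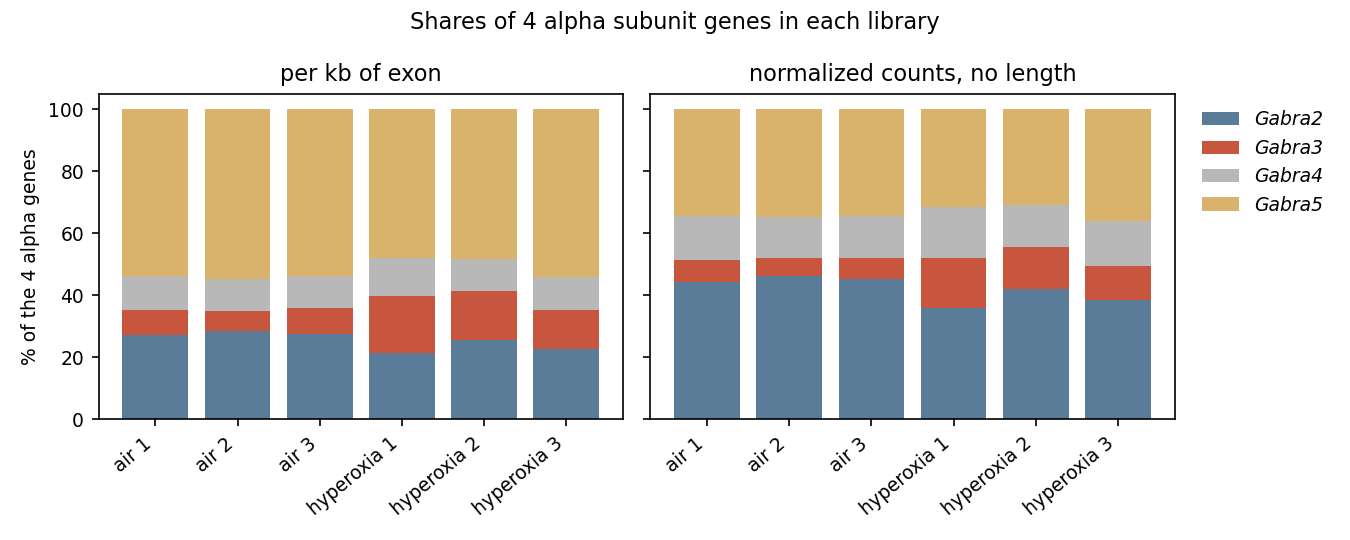
Share (%, stacked bars from 0 to 100) of Gabra2, Gabra3, Gabra4 and Gabra5 in their sum in each of the 6 libraries, per kb of exon (left) and without length (right). The red segment of Gabra3 is between 6.60% and 8.30% in Air and between 12.6% and 18.5% in Hyperoxia on the left.

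In the pair of beta genes, Gabrb1 made up 78.4%, 79.7% and 74.6% of the sum per kb in Air and 53.7%, 75.3% and 57.4% in Hyperoxia. Hyperoxia library 2 lay inside the Air range, and the means of 77.6% ± 2.65 and 62.1% ± 11.5 (SD, n = 3) did not reach the smallest p (exact permutation p = 0.2). The log2 ratio per kb of Gabrd to Gabra4, whose products share a receptor, was −1.34 ± 0.11 in Air and −0.97 ± 0.23 in Hyperoxia (SD, n = 3). The groups overlapped for Gabrd itself and only just failed to overlap for this ratio (exact permutation p = 0.1). Its highest Air value was −1.222 (library 2) and its lowest Hyperoxia value −1.218 (library 3), which are nearly level.

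The other GABA-A receptor subunit genes of the table numbered 11, of which 7 were tested. Of these, 3 were called higher, 0 were called lower and 4 did not pass the threshold, against 14.9% of all genes called higher. Without Hyperoxia library 2, 6 were called higher and 0 lower, against 21.6% and 22.0% of all genes in that fit. Gabrg1, a gamma subunit gene on the same stretch of chromosome 5 as Gabra2, Gabra4 and Gabrb1, rose from 362 ± 54.1 to 748 ± 41.0 (SD, n = 3, log2 fold change 1.05, limma adjusted p = 5.9e-04). Genes of that stretch therefore differed in direction, with Gabrg1 called higher, Gabra2 called lower and the other 2 not called. On chromosome 7, Gabrg3 rose from 779 ± 45.2 to 1248 ± 172 (SD, n = 3, log2 fold change 0.67, limma adjusted p = 0.0021), beside Gabra5, which was not called. On the X chromosome, Gabrq, the theta subunit gene near Gabra3, had 24.5, 19.3 and 18.5 in Air and 57.5, 117 and 48.3 in Hyperoxia (log2 fold change 1.69, limma adjusted p = 0.0047). Gabrq was the scarcest of these 3 and was higher in every Hyperoxia library.

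The list of genes for receptor clustering, assembly and trafficking held 21 genes, all tested, of which 2 were called higher and 4 lower, against 14.9% and 15.6% of all genes tested. After length and GC correction 8 were called lower, against 19.9% of all genes in that fit. Shisa7, an auxiliary subunit of the receptor, fell from 15330 ± 544 to 8852 ± 592 (SD, n = 3, log2 fold change −0.79, limma adjusted p = 3.3e-04). Slitrk3, which acts in building inhibitory synapses, fell by 0.53 on the log2 scale (limma adjusted p = 0.0032), and Gabarapl1, a relative of the GABA-A receptor-associated protein, fell by 0.53 (limma adjusted p = 0.0010). Gabarapl2, of the same family, was called higher (log2 fold change 0.27, limma adjusted p = 0.038), as was Dmd, which encodes dystrophin (0.35, limma adjusted p = 0.025). Gphn, which encodes the scaffold gephyrin, did not pass (log2 fold change −0.15, limma adjusted p = 0.13). The median log2 fold change of the list was −0.08.

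Of 10 genes of GABA synthesis, transport and chloride handling, 2 were called higher and 0 lower, against 14.9% and 15.6% of all genes tested, with a median log2 fold change of 0.17. The higher genes were Slc6a13, a GABA transporter (0.77, limma adjusted p = 0.013), and Aldh5a1, which acts in the breakdown of GABA (0.48, limma adjusted p = 0.0016). Of the 2 genes of the metabotropic GABA-B receptor, Gabbr1 was called lower (log2 fold change −0.25, limma adjusted p = 0.027) and Gabbr2 was not called (0.03, limma adjusted p = 0.78). The call of Gabbr1 was lost without any 1 Air library or Hyperoxia library 1.

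Genes that mark regions and cell types next to or within the hippocampus were set beside these results. The counts below stand against 14.9% of all genes tested called higher and 15.6% called lower. Of 9 genes that mark thalamus, 4 were called higher and 0 lower, and their summed normalized count was 6066 to 6360 in Air and 8708 to 10326 in Hyperoxia. Of 7 genes that mark neocortex and subiculum, 5 were called higher and 0 lower, with sums of 6596 to 8001 in Air and 7825 to 9586 in Hyperoxia. Of 6 dentate granule cell genes, 5 were called lower, with sums of 16111 to 16893 in Air and 9647 to 14479 in Hyperoxia, and 3 of 4 CA3 pyramidal cell genes were called lower. Among 8 interneuron genes, 1 was called higher and 1 lower, and of 5 CA1 pyramidal cell genes 2 were called higher. Of 7 oligodendrocyte genes 6 were called lower, and the sum of 7 choroid plexus genes reached 8179 in Hyperoxia library 3 against 491 to 1421 in the other libraries. No gene of these lists was at 0 in any library.

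Within Hyperoxia, the libraries came in the same order for Gabra3 and the neocortex and subiculum sum (9586, 7830 and 7825 in libraries 1 to 3), and for Gabrb2 and the dentate sum. With only 3 libraries a shared order arises easily, and some of these values were nearly level. Examples are 7830 and 7825, the Gabrb2 counts of libraries 1 and 3, and the dentate sums of libraries 1 and 2. Gabrb2 was lowest in Hyperoxia library 2, where the dentate sum was lowest (9647) and the thalamus sum was highest (10326). Gabrd, whose subunit is abundant in dentate granule cells, was highest in Hyperoxia libraries 1 and 2, where the dentate sum was 9741 and 9647, and lowest in library 3, where it was 14479. The part of these tissues and cells in the differences of the subunit genes was not tested.

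**Figure D4:**
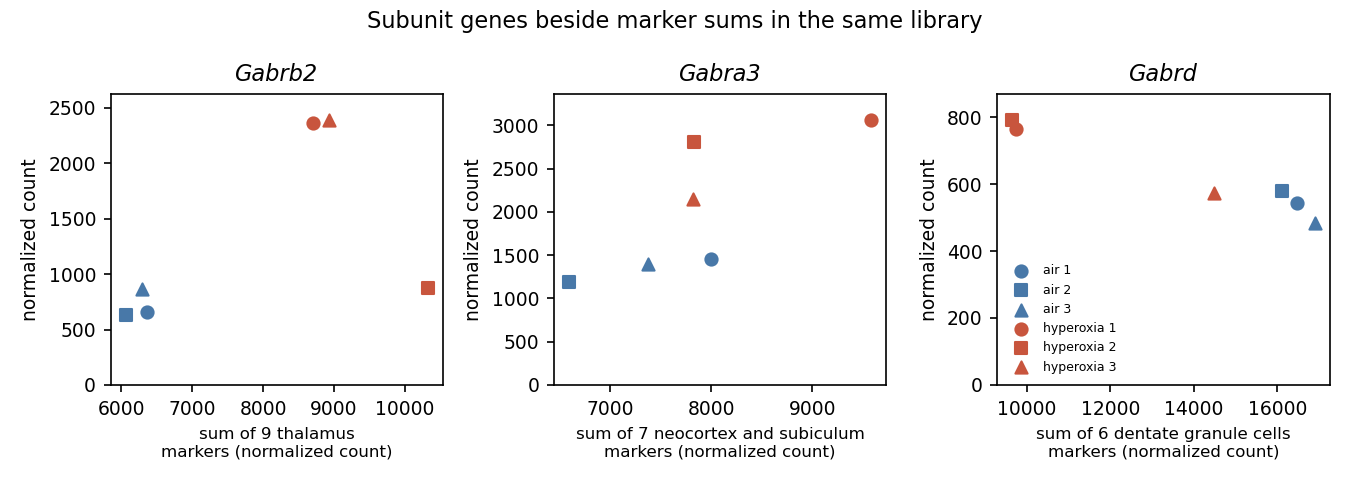
Normalized count of Gabrb2, Gabra3 and Gabrd (vertical axes, linear from 0) against the summed normalized count of the thalamus, neocortex and subiculum, or dentate granule cell genes (horizontal axes, linear, not from 0) in each library, Air in blue and Hyperoxia in red. In the left panel Hyperoxia library 2 has the highest thalamus sum (10326) and a Gabrb2 count of 877, close to Air.

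For each subunit gene, the protein-coding gene with the most similar profile over the 6 libraries was found by Pearson's r of log2 values, which share library preparation and depth. These were C77080 for Gabra3 (r = 0.999), Krba1 for Gabrb2 (0.999), Otub2 for Gabra2 (0.998), Naa50 for Gabrb1 (0.998), Them4 for Gabrd (0.997), Wdr75 for Gabra5 (0.992) and Arhgap44 for Gabra4 (0.991). With only 6 libraries such values were common, and between 3 genes (Gabra4) and 708 genes (Gabrb2) had an r above 0.95.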

How the data were processed

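Left hippocampal RNA of 3 Air and 3 Hyperoxia mice was sequenced from polyA-selected, strand-specific libraries as paired ends. The authors deposited a signal per gene and library, a read count divided by a size factor. The submitters' processing notes name STAR 2.5.3a, HTSeq, FastQC and DESeq2. No source used here gives the genome build, the annotation or the use of strand in counting. In every library 100% of values lay within 0.01 of a whole number of reads, and 38746972, 35348128 and 34976005 reads on genes were recovered in Air and 38045901, 30384052 and 35034602 in Hyperoxia. A deposited table of the authors' own comparison (fold changes and p-values) was not used.

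Genes with a mean of at least 10 were tested with limma 3.58.1 (mean-variance trend, R 4.3.3) on log2 of the value plus 1, which understates the change of low genes, with Benjamini-Hochberg adjustment. The script was tested on simulated data. Alternatives were edgeR 4.0.16 (quasi-likelihood) and DESeq2 1.42.0 on the recovered reads, which called 5501 and 5611 genes, other pseudocounts (0.5 and 5), filters (none, and a mean of at least 50) and scalings, no trend, a column-number block, removal of length and GC trends (mgcv 1.9.3), and each library left out. A fit with the Xist class was added after the data were seen. Shares were compared by exact permutation tests (scipy 1.17.1). Lengths and positions are from GENCODE M21 (GRCm38), which held 99.68% of the identifiers. Whether each library is a separate litter is not given, so p-values measure the spread between these samples.

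The members and gene lists were chosen with earlier results of these data known. Named genes were all 7 members, up to 4 called genes without overlap per other list by size of change, and the most similar gene to each member; Gphn, Gabarapl2, Dmd, Gabbr2, Gm9962 and Xist were named beside them after their values were seen. Some genes are not reported here.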

Additional observations from a re-analysis of the deposited data

How the results depend on the processing

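Gabra3 was called higher under all 18 alternatives. The count of subunit genes called higher went from 3 to 1 in limma without a trend, and lay between 1 and 3 with 1 library left out. The count called lower went from 1 to 0 under quantile normalization and without a trend, and lay between 0 and 1 with 1 library left out. Gabra2 lost its call without any 1 library except Hyperoxia library 2, under quantile normalization and without a trend. Gabrb2 lost it without Air library 1, Air library 2 or Hyperoxia library 1 and without a trend, and Gabrd lost it without any 1 library except Hyperoxia library 3, under quantile normalization, without a trend and with the Xist class. Leaving out a library also leaves fewer samples to estimate the spread. Removal of length and GC trends turned Gabrb1 to −0.19 and Gabra4 to −0.091 (log2), and with 1 library left out Gabra4 lay between −0.013 (without Hyperoxia library 1) and 0.064. The cause was not tested.

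The shares and ratios kept their direction under every alternative run for them. These alternatives were no division by length, the length of the longest transcript, and each library left out. Removal of length and GC trends, which turned Gabrb1 and Gabra4, was not run for the shares and ratios. Leaving out 1 library gave differences in share, in percentage points, of −5.71 to −3.65 for Gabra2, 6.55 to 9.51 for Gabra3, −6.002 to −2.92 for Gabra5 and 0.0098 to 0.89 for Gabra4.

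The clustering list had 1 gene called higher and 8 lower after removal of length and GC trends, and with 1 library left out 0 to 3 higher and 4 to 6 lower. With 1 library left out, the list of GABA synthesis, transport and chloride had 1 to 3 genes called higher and 0 to 1 lower, the GABA-B receptor 0 to 1 lower, and the other subunit genes 3 to 6 higher.

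With the column number as a replicate block, limma called 4 subunit genes higher and 1 lower, with Gabrb1 added at 0.22 (limma adjusted p = 0.045). Whether the numbers pair the samples is not given. Same-numbered libraries correlated at −0.08, 0.13 and 0.10 in their deviations from group means, and differently numbered ones at −0.29 to 0.26. With so few libraries per group, these values cannot decide whether the samples are paired.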
